A study of Arabidopsis thaliana with 4 samples.

Results

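The genes described here are the nuclear genes of the chloroplast NDH complex that could be named on the array: NdhL (AT1G70760), NdhN (AT5G58260), NdhS (AT4G23890) and PIFI (AT3G15840). They were picked by a rule on gene names, set with earlier results of these data known, as the probe sets annotated to 1 nuclear gene called NDH plus a letter or PIFI, and each gene had 1 probe set. This gave 4 of the 13356 genes that had a probe set of their own, among 22746 probe sets tested, and ndh genes of the plastid genome were not counted among them. RNA came from the aerial parts of Arabidopsis thaliana plants 2 weeks old. The control group was 2 arrays of Columbia plants, and the jaw-D group was 2 arrays of an activation-tagged line, a single line in which a tag carrying enhancers raises the microRNA miR319a. No treatment is named for either group, and the labels do not say whether arrays came from separate or pooled plants. The comparison asks which transcripts differ between jaw-D and Columbia plants.

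The chloroplast NDH complex is a thylakoid membrane complex that accepts electrons from ferredoxin and passes them to plastoquinone, in cyclic electron flow around photosystem I and in chlororespiration. It is built from subunits of both the plastid and the nuclear genome, and assembly factors and RNA editing proteins of the nucleus are needed to make it. NdhL, NdhN and NdhS are subunits of the complex, and NdhS forms the ferredoxin-binding site. PIFI is a stromal protein required for the activity of the complex and is not counted among its subunits.

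Transcripts of NdhL, NdhN and PIFI were lower in jaw-D than in control plants. NdhL was at 48.5% of its control mean, NdhN at 60.3% and PIFI at 64.3%. NdhS was at 80.2% and did not pass the test. All 4 genes had both jaw-D values below both control values, as did 23.6% of all probe sets. Differences are given as jaw-D minus control of log2(normalised intensity + 302.3), which slightly understates the fold of bright probe sets and strongly that of dim ones. A gene is called where the adjusted p from limma across all probe sets, with Benjamini-Hochberg adjustment, is under 0.05.

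NdhL, whose loss disrupts the stromal arm of the complex, had deposited intensities of 11286.5 and 11950.4 in the Columbia plants. In jaw-D they were 6088.5 and 4982.7. The jaw-D arrays were the low ones, with a wide gap to the controls, although they also differed from each other more than the controls did (0.30 against 0.06 on the log2 scale after normalisation). After normalisation the means were 11380 ± 329 in control and 5516 ± 841 in jaw-D (SD, n = 2 per group). The log2 difference of NdhL was -1.01 ± 0.11 (SE), with a 95% interval of -1.28 to -0.74 and a limma adjusted p of 0.0192.

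NdhN, a subunit of the stromal part, was deposited at 14371.5 and 13301.6 in control and at 8069.1 and 8248.2 in jaw-D. Here the control arrays were the more spread pair, and the jaw-D arrays lay within 0.02 of each other on the log2 scale. Its normalised means were 13559 ± 942 and 8172 ± 76.8 (SD, n = 2 each). NdhN fell by a log2 difference of 0.71 ± 0.08 (SE; 95% interval -0.89 to -0.52, limma adjusted p 0.0191).

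PIFI was deposited at 21341.7 and 21787.3 in control and at 12562.2 and 13539.7 in jaw-D. The groups did not overlap, and the arrays of each group lay close together. Its normalised means were 20705 ± 255 and 13323 ± 743 (SD, n = 2 per group). PIFI fell by 0.63 ± 0.07 on the log2 scale (SE; 95% interval -0.80 to -0.46, limma adjusted p 0.0192).

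NdhS was deposited at 8748.7 and 8823.0 in control and at 7032.9 and 6947.0 in jaw-D. Both pairs of arrays were tight, at 0.02 apart on the log2 scale after normalisation, and did not overlap. The normalised means were 8740 ± 83.4 and 7011 ± 81.8 (SD, n = 2 each). Its log2 difference was -0.31 ± 0.07 (SE; 95% interval -0.47 to -0.15), with an unadjusted p of 0.00372 and a limma adjusted p of 0.0659. NdhS passed in 2 other settings, at an adjusted p of 0.0294 with each array centred on its own median and 0.0487 with dim probe sets left out.

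**Figure D1:**
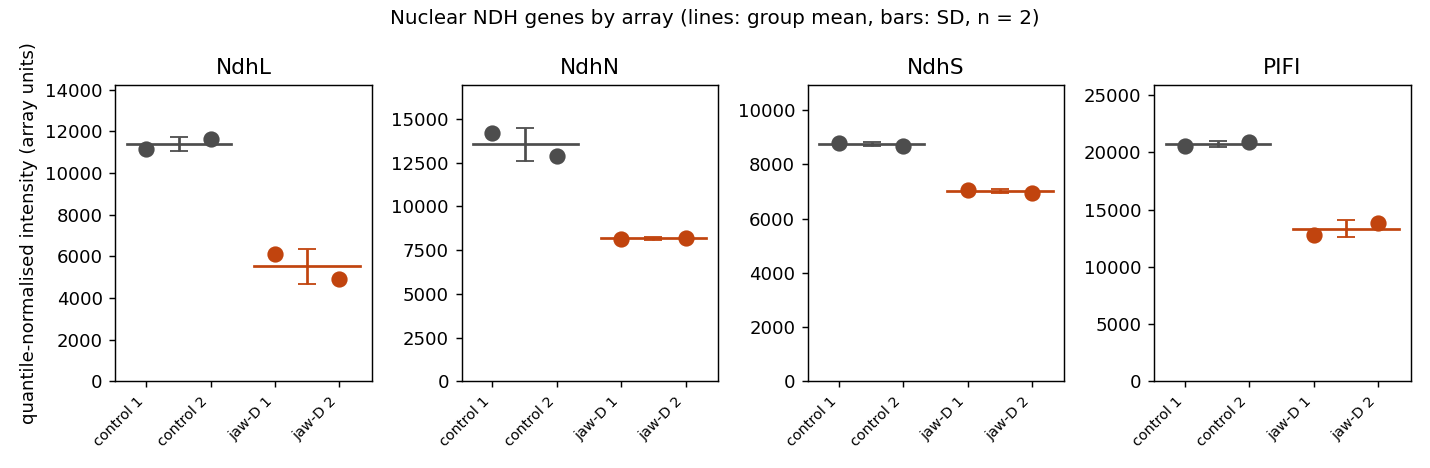
Quantile-normalised intensity of NdhL, NdhN, NdhS and PIFI on each of the 4 arrays, with the group mean as a line and the SD as a bar (n = 2 each) and axes that start at 0. In every panel both jaw-D points lie below both control points, with the widest gap relative to level for NdhL (11380 against 5516) and the narrowest for NdhS (8740 against 7011).

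Against the whole array, 3 of these 4 genes were called lower and 0 higher, where 2.54% of all probe sets were called lower and 1.64% higher. The median log2 difference was -0.67 over the 4 genes and 0.01 over all probe sets. That both jaw-D values lay below both control values was common, at 23.6% of all probe sets. The 4 genes are bright, with means of 7876 to 17014 units, and bright probe sets were called more often. Among the 1267 probe sets within that range of means, a comparison added after the data were seen, 10.0% were called lower, 7.42% were called higher, and 32.0% had both jaw-D values below both controls. In that range 0.789% of probe sets had a difference at or below that of NdhL, 1.97% at or below NdhN, 2.84% at or below PIFI and 16.7% at or below NdhS.

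**Figure D2:**
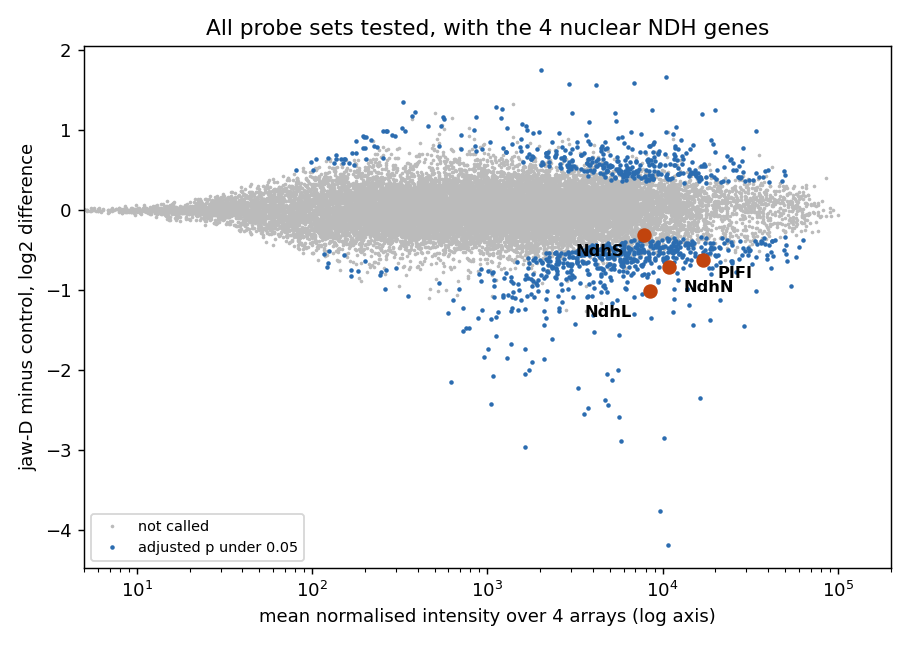
Log2 difference of jaw-D against control for all 22746 probe sets (vertical axis) by mean normalised intensity (horizontal, log axis), with called probe sets in blue and the 4 nuclear NDH genes in red. NdhL, NdhN and PIFI lie among the called falls at -1.01, -0.71 and -0.63, and NdhS at -0.31 lies at the edge of the probe sets that were not called.

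The calls of NdhL, NdhN and PIFI depended on having all 4 arrays and on sharing the spread across probe sets of like level. With any 1 array left out, the number called went from 3 to 0 (adjusted p 0.0814 to 0.183), although the differences stayed at -1.18 to -0.88 for NdhL, -0.77 to -0.63 for NdhN, -0.69 to -0.58 for PIFI and -0.32 to -0.30 for NdhS, and 12 or fewer probe sets of the whole array were then called lower. Without the variance trend of limma the number was also 0 (adjusted p 0.0716 for NdhL and NdhN and 0.078 for PIFI), while all 4 genes had an unadjusted p under 0.05 in every setting run.

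**Figure D3:**
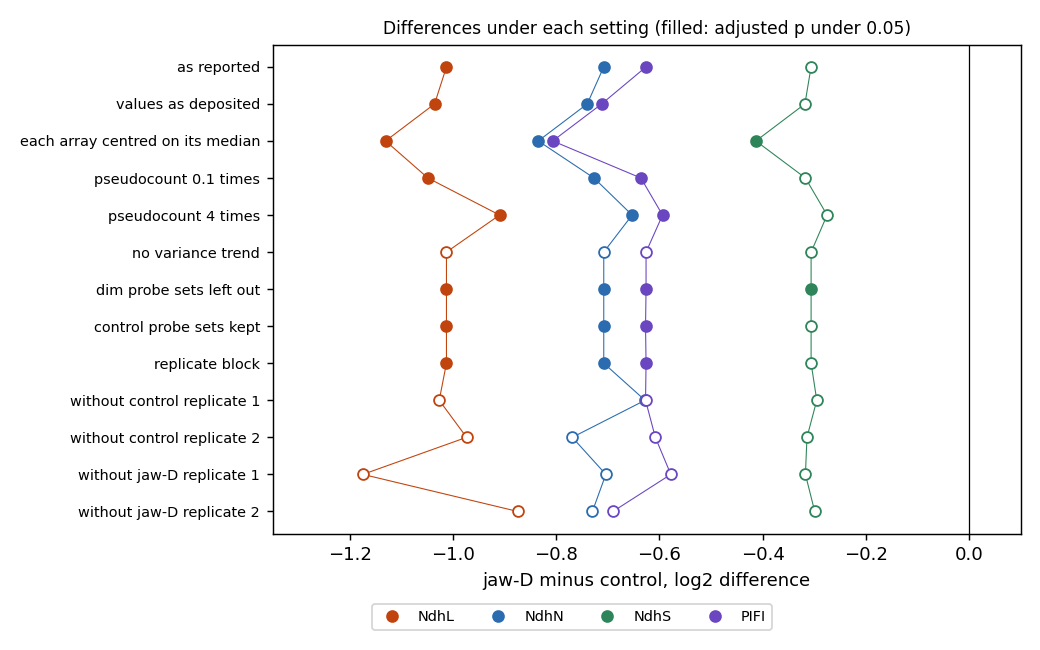
Log2 difference of each nuclear NDH gene (horizontal axis) under the reported setting and the 12 alternatives (vertical axis), filled where the adjusted p was under 0.05. All points lie below 0 and each gene keeps a narrow band, while NdhL, NdhN and PIFI are open without the variance trend and with any 1 array left out.

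How far each member was lowered was compared through differences of normalised log2 values within each array. The log2 value of NdhL minus that of NdhS was 0.33 and 0.41 in the controls but -0.20 and -0.47 in the jaw-D plants, a shift of -0.71. NdhN minus NdhS was 0.68 and 0.56 in control and 0.19 and 0.23 in jaw-D, a shift of -0.40. NdhS minus PIFI shifted the other way, by 0.32. These 3 ratios did not overlap between groups, and NdhS had the smallest difference of the 4 genes on these arrays. How often ratios of other probe sets do not overlap was not computed. The pairs reuse the same 4 genes, so they are not separate observations.

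NdhL minus NdhN shifted by -0.31 and NdhL minus PIFI by -0.39, also without overlap, though the first was at -0.34 on control 1 and at -0.39 on jaw-D 1. NdhN minus PIFI shifted by -0.08 and its groups overlapped. With 2 arrays against 2, an exact two-sided permutation test cannot give a p below 0.333, so it could not have passed for any of the 6 pairs. That smallest p came from 5 of them (0.4 after Benjamini-Hochberg adjustment over the 6), and NdhN minus PIFI gave 0.667.

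**Figure D4:**
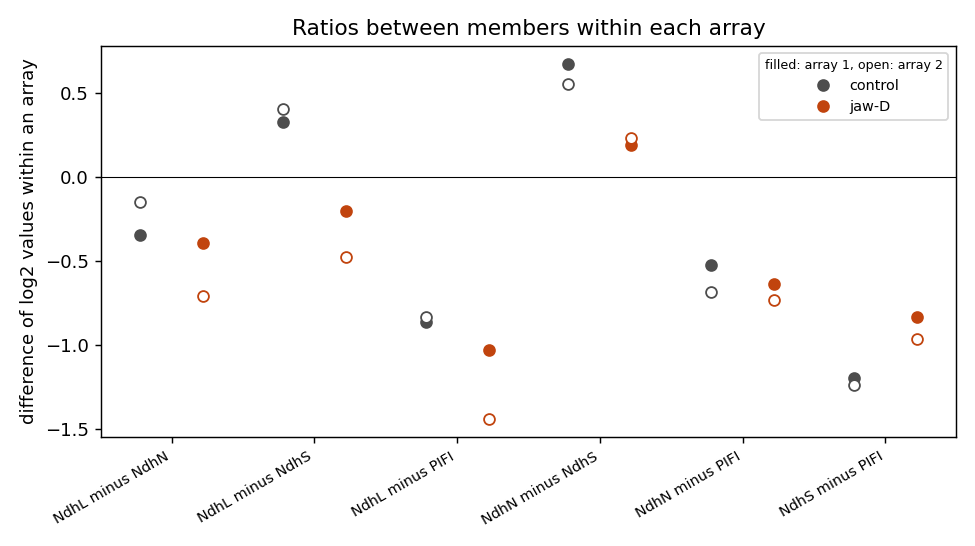
Difference of log2 values between 2 members within the same array, for the 6 pairs, with control arrays in grey and jaw-D arrays in red (array 1 filled, array 2 open). The pairs with NdhS are the most separated, such as NdhL minus NdhS at 0.33 and 0.41 in control against -0.20 and -0.47 in jaw-D, and the groups overlap for NdhN minus PIFI.

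Of 17 other nuclear loci listed for the complex, 1 had a named probe set, AT2G04039. The reference gene table gives it no symbol, and its place in the list comes from general knowledge that no source used here bears out. This probe set was deposited at 8098.9 and 7079.5 in control and at 4273.4 and 5211.6 in jaw-D. Its log2 difference of -0.66 ± 0.13 (SE) was close to those of NdhN and PIFI, and its limma adjusted p of 0.0502 lay just outside the threshold. AT2G04039 passed as deposited (0.0376), centred on the median (0.0202), at 0.1 times the pseudocount (0.0316) and with dim probe sets left out (0.00554).

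Among factors that assemble the complex or process its plastid transcripts, 8 of 16 were measured, of which 2 fell, 0 rose and 6 did not pass. The median log2 difference was -0.43, against 0.01 for all probe sets, of which 2.54% were called lower and 1.64% higher. CRR41, a stromal factor for assembly of the stromal subcomplex, was at 3929.9 and 3495.2 in control and at 2084.9 and 2499.0 in jaw-D as deposited. It fell by 0.70 ± 0.12 on the log2 scale (SE, limma adjusted p 0.0395). CRR42, another factor of this assembly pathway, was at 3708.5 and 3595.8 in control and at 2482.6 and 2432.5 in jaw-D, and fell by 0.58 ± 0.09 (SE, limma adjusted p 0.0299). Neither gene's groups overlapped, and 23.6% of all probe sets had both jaw-D values below both controls. With any 1 array left out or without the variance trend, 0 of the 8 were called.

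The other factors of this list did not pass. Cpn60beta4, a chaperonin subunit that folds the plastid-encoded NdhH, had a log2 difference of -0.32 (limma adjusted p 0.185). Of the pentatricopeptide proteins that edit plastid transcripts, CRR22 was at -0.54 (0.0897), OTP84 at -0.45 (0.176) and CRR21 at -0.41 (0.102). Each of these had both jaw-D values below both controls, as did 23.6% of all probe sets. CRR22 and CRR21 passed when dim probe sets were left out (0.0224 and 0.045), which made 4 of 8. CRR28, also an editing factor, was at 0.00 and OTP85, a dim gene of the same kind at 321.7 to 668.0 deposited units, at 0.13, with overlapping groups.

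The plastid-encoded subunits showed no call in either direction, where 2.54% of all probe sets were called lower and 1.64% higher. A count of 0 of 10 lies near those shares. Of 12 gene copies in the list 10 had a probe set of 1 gene (the probe set for ndhB has several genes and was not used), and 0 of the 10 passed with limma. At an unadjusted p under 0.05 there was 1, ndhF, and the median log2 difference was -0.08. The genes ndhA, ndhC, ndhI and ndhJ were at -0.07 to -0.09 after quantile normalisation, and ndhE and ndhH at -0.18 and -0.20. The size for the first 4 depended on the scaling, at -0.182 to -0.199 as deposited and -0.277 to -0.294 with each array centred on its median, where the median of all probe sets was -0.06. They did not pass in these settings either. ndhD was at 0.10 and ndhK at 0.24 (limma adjusted p 0.611 and 0.253). ndhD turned to -0.09 with each array centred on its median.

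The plastid genes ndhF and ndhG stood apart through 1 control array. ndhF was deposited at 7183.1 on control 1, but at 2799.7 on control 2 and at 2491.4 and 2111.1 on the jaw-D arrays. ndhG was at 13138.1 on control 1 and at 5504.3, 5312.8 and 5745.7 on the others. The differences of -0.95 for ndhF and -0.58 for ndhG (limma adjusted p 0.25 and 0.462) became -0.32 and 0.02 without control 1. NdhL, NdhN, NdhS and PIFI had no such gap between the control arrays, at most 0.14 on the log2 scale.

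**Figure D5:**
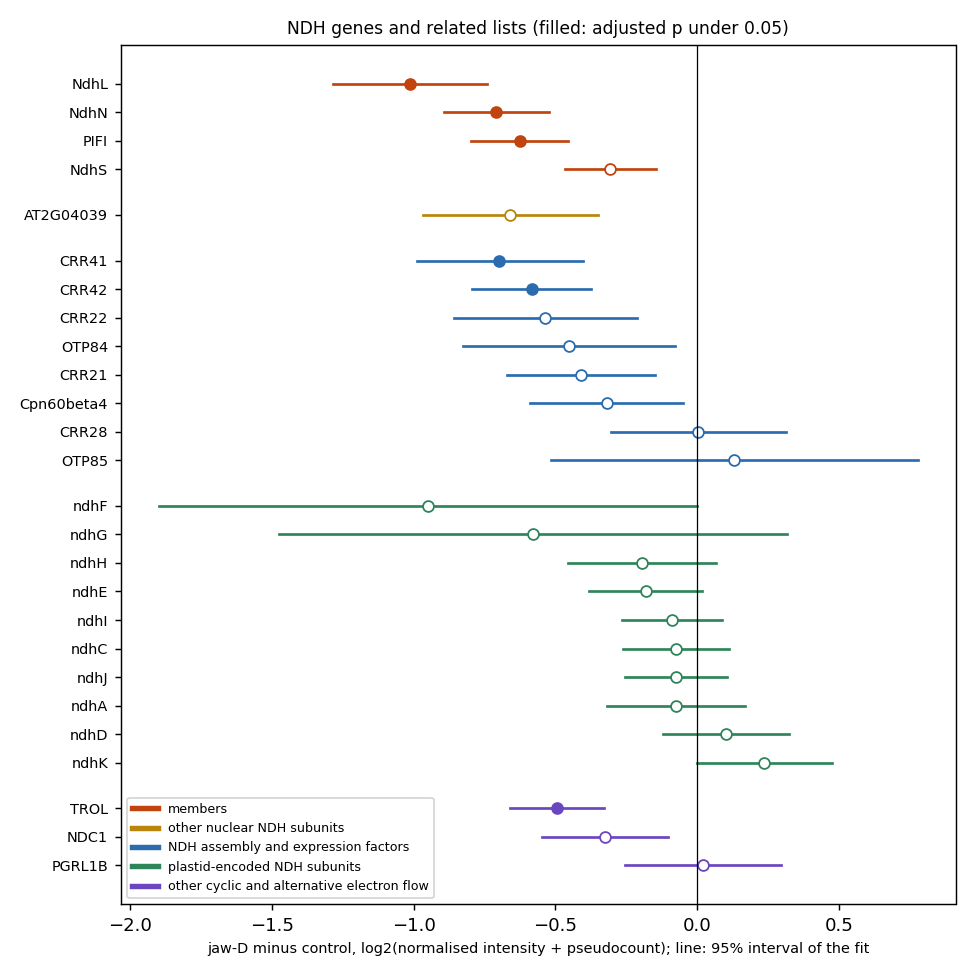
Log2 difference of jaw-D against control (points) with the 95% interval of the limma fit (lines) for the 4 nuclear NDH genes (labelled members), AT2G04039, the measured assembly and expression factors, the plastid-encoded subunits and other genes of cyclic and alternative electron flow; filled points have an adjusted p under 0.05. NdhL, NdhN, PIFI, CRR41, CRR42 and TROL are filled and negative, while most plastid genes lie nearer 0 under this normalisation and ndhF and ndhG have the widest intervals.

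Outside the complex, 3 of 10 listed genes of cyclic and alternative electron flow were measured. Of these 1 fell, where 2.54% of all probe sets were called lower. TROL, a thylakoid protein that anchors ferredoxin-NADP reductase, was deposited at 14666.9 and 14278.8 in control and at 10090.3 and 9574.4 in jaw-D. It fell by 0.49 ± 0.07 on the log2 scale (SE, limma adjusted p 0.0275). The call of TROL ended without the variance trend (0.0974) and with any 1 array left out (0.124 to 0.195). NDC1, a plastid NAD(P)H dehydrogenase of another type, was at -0.32 (limma adjusted p 0.12). PGRL1B, of the PGR5-dependent route of cyclic flow, was at 0.02 (limma adjusted p 0.959), with overlapping groups.

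Other nuclear photosynthesis genes gave 2 calls among the 7 measured, both lower. Over all probe sets 2.54% were called lower and 1.64% higher. Most of the 7 were brighter than the NDH genes, and the share called at their level was not computed. Of photosystem I and its antenna, 2 of 16 listed genes were measured: PSAN, a lumenal subunit, fell by 0.37 (limma adjusted p 0.0397), and PSAE-1 was at -0.14 (limma adjusted p 0.326). Of photosystem II and its antenna, 5 of 25 were measured and 1 fell, the antenna gene LHCB4.3 (-1.44, limma adjusted p 0.00517), where NdhL was at -1.01. LHCB4.2 was at -0.19 and PSBY at -0.25 (limma adjusted p 0.177 and 0.131), and the medians of the lists were -0.25 and -0.19. Both passed after median centring of the arrays (-0.405 and -0.458, adjusted p 0.0375 and 0.0293), and PSBY also with dim probe sets left out (0.0306). The call of PSAN ended without the variance trend (0.129) and with any 1 array left out (0.138 to 0.209), and that of LHCB4.3 with any 1 array left out (0.0718 to 0.101). The difference between these lists and the NDH genes was not tested.

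Markers of green leaf tissue moved in part with the NDH genes. Of 10 such markers 3 were measured and 2 were called lower, where 2.54% of all probe sets were called lower. The 3 markers were brighter than the NDH genes, and the share called at their level was not computed. PRK and SBPASE, enzymes of the Calvin cycle, fell by 0.38 and 0.42 (limma adjusted p 0.0461 and 0.044), and RCA, rubisco activase, was at -0.04 (limma adjusted p 0.843). Both calls ended with any 1 array left out (0.134 to 0.238) and without the variance trend (0.138 and 0.127). The summed normalised level of the 3 markers, RCA included, was 166699 and 155732 units in control and 133593 and 140095 in jaw-D. In whole aerial parts, fewer green cells and less RNA per cell cannot be told apart, and the part of tissue makeup in the NDH differences was not tested. The green markers read 30372.5 to 79465.2 deposited units over the 4 arrays. Of the root markers 2 of 6 were measured, EXPA7 at 86.7 to 519.6 deposited units and EXPA18 at 391.2 to 612.4. The meristem marker CLV3 was at 29.2 to 98.1. Transcripts of Bacillus subtilis absent from plants read up to 352.6, which EXPA18 exceeded on every array and EXPA7 on jaw-D 2 only. FMA, a guard cell regulator, was at 1426.1 to 2114.1 units (-0.41, limma adjusted p 0.142). No marker of epidermis, vasculature or flowers was named.

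The arrays had the same trimmed mean (2500 units). Medians of the deposited values were 1068.5 and 1032.1 in control and 1138.75 and 1146.1 in jaw-D. Both jaw-D medians thus lay above both control medians, a difference that quantile normalisation removes. Control 2 read 48894.3 units at the probe set for 25S ribosomal RNA, and the other arrays 1014.9 to 1596.2. Without control 2 the differences were -0.97 for NdhL, -0.77 for NdhN, -0.61 for PIFI and -0.31 for NdhS. The ratio of 3′ to 5′ probe sets of actin was 6.97 and 7.34 in control and 6.21 and 7.78 in jaw-D. For GAPDH it was 1.92 and 1.63 in control and 1.49 and 2.08 in jaw-D. For ubiquitin it was 3.4 and 2.73 in control and 2.64 and 3.48 in jaw-D. The ratio of actin was the highest on every array. For each transcript the groups overlapped, so these signs of RNA integrity did not separate them.

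NdhS lies on chromosome 4 in the stretch that holds MIR319A, the gene activated in jaw-D. By gene order in TAIR10.1, 18 protein-coding genes stand between MIR319A and NdhS, of which 13 had a probe set of 1 gene. Of their 14 probe sets 1 was higher, that of AT4G23720, and 0 were lower, where 1.64% of all probe sets were called higher. The log2 difference of AT4G23720 was 1.298 (limma adjusted p 0.0196), and that of NdhS was -0.31. Whether the enhancers of the tag act on either gene was not tested. With any 1 array left out, 0 probe sets of the whole array were called higher, so the call of AT4G23720 ended too.

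The named genes whose 4 values, centred on their mean, lay nearest to the average profile of the NDH genes were THX, APS3, CRR42, AAE15 and GSTU18, among 1546 genes with a symbol. The root mean square distance over the 4 arrays was 0.03 for THX and 0.04 to 0.05 for the other 4, on the log2 scale. THX, the plastid thioredoxin x, was at 17582 ± 242 normalised units in control and 11336 ± 273 in jaw-D (SD, n = 2 per group), which differ by -0.62 on the log2 scale. APS3, an ATP sulfurylase, was at -0.61, AAE15, an acyl-activating enzyme, at -0.67, and GSTU18, a glutathione transferase, at -0.60. CRR42 is the assembly factor given above. This likeness rests on 4 arrays and is a description.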

How the data were processed

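The deposited table holds a linear microarray intensity for each of 22810 probe sets in each of 4 arrays. The trimmed mean of the deposited intensities (2% at each end) was equal across them; which software made them is not given in the sources used here. After 64 control probe sets were dropped, the rest was quantile normalised, since the highest array median exceeded the lowest by 11.0%. Values were taken as log2(value + 302.3), the pseudocount being the 25th percentile of deposited values.

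Each of 22746 probe sets was tested with limma 3.58.1 in R 4.3.3 (lmFit, eBayes with trend, 2 residual degrees of freedom, two-sided, Benjamini-Hochberg over all probe sets). The fit was also run on simulated data whose spread followed level by a trend of the same kind. That run cannot test whether the trend holds in these data. Genes were named through the platform annotation and the TAIR10.1 gene table: 13513 probe sets had 1 gene, 503 several, and 8730 were unnamed here. Lists were matched by locus, plastid genes by symbol. Named genes were the NDH genes, the measured genes of the NDH and electron flow lists, up to 3 of each photosystem list by p, and the 5 nearest profiles; markers and AT4G23720 were named besides. The genes and lists were chosen with earlier results of these data known. Promoter motifs were not analysed here. The labels do not say that samples were separate plants, so the spread behind the p-values may be technical. The number of arrays limits the precision. Alternatives changed the normalisation, pseudocount, variance trend, filter, control probe sets, replicate block and arrays included.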

Additional observations from a re-analysis of the deposited data

How the results depend on the processing

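All 4 NDH genes kept a negative difference under the 12 alternatives. The number called lower was 3, but 4 centred on the median and with dim probe sets left out, and 0 without the variance trend. The calls also depended on having all 4 arrays. Without the variance trend NdhL stayed at -1.01, NdhN at -0.71 and PIFI at -0.63 and did not pass. NdhS passed centred on the median (-0.41) and with dim probe sets left out (-0.31). With 1 array left out the ranges were -1.18 to -0.88 (NdhL), -0.77 to -0.63 (NdhN), -0.69 to -0.58 (PIFI) and -0.32 to -0.30 (NdhS). The call of AT2G04039 made its list 1 in place of 0 as deposited, centred on the median, at 0.1 times the pseudocount and with dim probe sets left out. Assembly factors called lower went from 2 to 4 with dim probe sets left out, and to 0 without the trend, with the replicate block or with any array left out. The electron flow and photosystem I lists went from 1 to 0 without the trend and with any array left out, the latter also with the block. The photosystem II list went from 1 to 3 centred on the median, to 2 without dim probe sets and to 0 with any array left out. Over the whole array 578 probe sets were lower and 374 higher. These became 978 and 248 centred on the median (20.2% higher, against 39.3%), 51 and 14 without the trend, 1090 and 903 without dim probe sets, 309 and 157 with the block, and 0 to 12 and 0 with any array left out.

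Signs turned for genes that passed in no setting. ndhD was at -0.091 and PGRL1B at -0.003 centred on the median. With 1 array left out the ranges were -0.065 to 0.073 (CRR28), -0.157 to 0.416 (OTP85), -0.205 to 0.055 (ndhA), -0.161 to 0.001 (ndhC), -0.007 to 0.213 (ndhD), -1.172 to 0.023 (ndhG), -0.091 to 0.132 (PGRL1B) and -0.119 to 0.027 (RCA).

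With the replicate block the 3 NDH calls held (adjusted p 0.0328 to 0.0358) and NdhS did not pass (0.123), while the calls of PRK and SBPASE ended (0.078 and 0.0711). Same-numbered arrays did not deviate together (correlation -0.02 over probe sets). The labels do not say whether equal numbers share a batch, and this correlation cannot settle it. The causes of these changes were not tested.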
